A study of Rattus norvegicus with 2 samples.

Results

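Of 10 genes that govern passage through the G1 phase of the cell cycle, 9 were measured on 2 Affymetrix rat arrays, of which 1 held undifferentiated C6 glioma and the other SMiNs. The genes were taken by name as the D-type cyclins (Ccnd1, Ccnd2, Ccnd3), their kinases (Cdk4, Cdk6), inhibitors of these and related kinases (Cdkn2b, Cdkn1a, Cdkn1b) and the pocket proteins Rb1 and Rbl1. A member was a probe set whose platform annotation gives exactly 1 gene symbol, equal to a listed name, and 18166 genes in all were named this way. Ccnd3 had no such probe set and was not analysed here. None of the 9 measured members had more than 1 probe set.

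C6 glioma is an established rat glial tumor line. The undifferentiated cells were grown in DMEM with 10% serum. SMiNs, the name given to small molecule-induced neurons, came from this line and were kept for 35 days in 20 μM CHIR99021, which blocks the kinase GSK3, and 100 μM forskolin, which raises cAMP. The sample labels state the small molecules and 10% serum for both arrays, whereas the methods of the study place SMiNs on Matrigel in a medium with N2, B27, BDNF and GDNF and no serum. Medium, coating, small molecules and time in culture therefore changed together and cannot be told apart. With 1 array per condition there is no spread between replicates, and each fold below describes this pair of arrays and carries no p-value.

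In G1, growth signals raise the D-type cyclins, which bind and activate CDK4 and CDK6. These kinases, and later CDK2 with cyclins E and A, phosphorylate the pocket proteins, which then release E2F transcription factors and with them the genes of DNA replication. INK4 proteins such as the product of Cdkn2b block CDK4 and CDK6, and CIP/KIP proteins such as p21 and p27 act mainly on CDK2. In gliomas the pathway is often altered, through loss of INK4 genes, gain of CDK4 or loss of RB1.

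The values are log2 signals, compared only between the arrays for the same probe set. To mark background, the 95th percentile of 232 receptor probe sets (olfactory and vomeronasal, taken as silent in these cells) served as the floor of an array, 4.68 for C6 glioma and 5.05 for SMiNs. All 9 members were at or above it on both arrays. The only repeat measurement on the arrays comes from 291 other genes with several probe sets. The differences between arrays that the probe sets of 1 such gene gave were a median of 0.27 apart on the log2 scale, and the 95th percentile of this gap was 1.43. For the 162 genes whose probe sets all reached the floor it was 1.21. This gap is not a replicate error, since it covers neither culture nor hybridization.

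The cell types were checked against markers. Of 8 neuron markers, 4 (Syt1, Nefl, Stmn2 and Dcx) lay below the floor on both arrays, and Rbfox3, which encodes NeuN, lay below it in SMiNs at 4.90. Tubb3 was 2.24-fold higher in SMiNs and Snap25 1.41-fold higher, while Map2 had 8.44 and 8.58. By these transcripts the defining neuron markers were mostly at background on the SMiN array, and SMiN is used here as the name of the sample. With antibodies, the study found most cells of SMiN cultures positive for neuron marker proteins. It also recorded sodium currents and action potentials in older SMiN cultures. The arrays measure RNA and neither protein nor currents, so these findings were not tested here. Of 6 glioma and precursor markers, 4 were at least 2-fold lower, namely Pdgfra (16.6-fold), Cspg4 (at least 7.68-fold), Vim (2.95-fold) and Nes (2.12-fold). S100b was 1.72-fold higher, Olig2 had the same signal on both arrays, and all 6 reached the floor on 1 array or both. Among all genes that did so, 12.8% were at least 2-fold lower. Of 5 measured astrocyte markers, Slc1a2 was at least 6.63-fold higher, Gfap was 1.48-fold lower, and 3 (Aqp4, Slc1a3 and Gjb6) lay below the floor on both arrays. Of 6 fibroblast markers, with a median difference of 0.19, Col1a1 and Pdgfrb were 4.76-fold and 5.39-fold lower, Col1a2 was 1.40-fold higher, Col3a1 had equal signals, and Dcn and Lum lay below the floor on both arrays. Of 6 macrophage markers only Cd68 reached the floor, on the C6 glioma array. The part of these differences in those of the G1 genes was not tested.

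Among the measured members, 2 were at least 2-fold higher in SMiNs, Ccnd2 and Cdkn2b. Another 4 were at least 2-fold lower, both kinases and both pocket proteins. Ccnd1, Cdkn1a and Cdkn1b lay within 2-fold. Cdkn2b was only 0.20 above the floor in C6 glioma. With the 99th percentile of the receptor probe sets as the floor, the upward count was 1. Across all 18166 named genes, 4.27% passed 2-fold upward and 8.12% downward. Among the 11427 genes that reached the floor on 1 array or both, these shares were 5.57% and 12.8%. The median difference of the members, SMiN minus C6 glioma, was -0.75 on the log2 scale, beside 0 for all named genes and -0.10 for genes at or above the floor on both arrays. The members ran from -1.67 to 3.50, so the median describes no typical member.

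**Figure D1:**
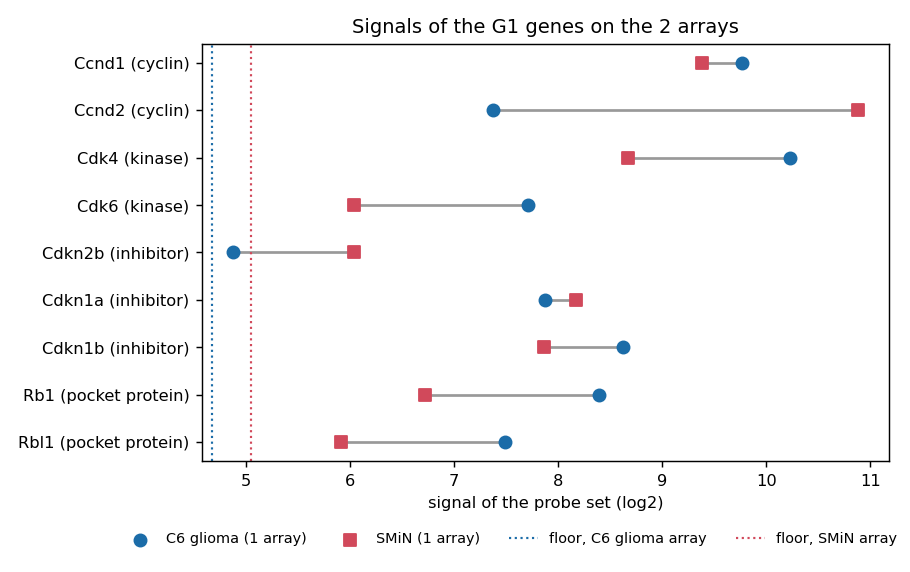
Log2 signal of the probe set of each measured G1 gene (x axis) on the C6 glioma array (circles) and the SMiN array (squares), 1 array each, with dotted lines at the floor of each array (4.68 and 5.05). The signal of Ccnd2 moved from 7.38 to 10.88, against the direction of the kinases Cdk4 and Cdk6. The member value nearest its floor was that of Cdkn2b in C6 glioma, 4.88, and in SMiNs Rbl1 (5.92), Cdk6 (6.04) and Cdkn2b (6.04) were the lowest.

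The D-type cyclins differed from each other. Ccnd2, a D-type cyclin with roles in neural progenitors and B cells, had a log2 signal of 7.38 in the parent line and 10.88 in SMiNs. It was 11.3-fold higher in SMiNs, with the 23rd highest difference of 18166 named genes. None of the 232 receptor probe sets differed by as much, and the highest of them was 2.12. Ccnd1, the D-type cyclin that Wnt and growth factor signals are best known to raise, had a signal of 9.77 in the parent line and 9.38 in SMiNs, 1.31-fold lower. The difference of Ccnd2 exceeded that of Ccnd1 by 3.89 on the log2 scale, a gap that no constant rescaling of an array can change and that is larger than the largest gap between probe sets of 1 gene (2.94). The 2 cyclins are paralogs, and whether their probes share targets was not tested. The C6 glioma value of Ccnd2 was shared exactly by 4 other probe sets, in an array on which 49.1% of values were shared with another probe set.

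Signals of both cyclin D-dependent kinases were lower in SMiNs. Cdk4 had a log2 signal of 10.23 in the parent line and 8.67 in SMiNs, 2.94-fold lower. Cdk6, its close paralog, had 7.71 and 6.04, 3.18-fold lower. Their differences of -1.56 and -1.67 were 0.11 apart, less than the median gap between probe sets of 1 gene. Both exceeded the 95th percentile of that gap in size. None of the receptor probe sets was lower by as much. Taken as silent, they had little room to fall and are no check of these drops. Some 536 named genes had a lower difference than Cdk4, and 442 a lower difference than Cdk6. In a bulk sample, fewer cells in cycle and less RNA of these genes per cell cannot be told apart. By staining for Ki-67, a marker of proliferating cells, the study found fewer positive cells in SMiN cultures than in C6 glioma. The part of this in the kinase signals was not tested. Relative to Cdk4 the signal of Ccnd2 changed by 5.06 on the log2 scale, and relative to Cdk6 by 5.17.

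The promoter window of Cdk4 is shown because it holds several E boxes, the letters CACGTG that MYC and related factors bind, and because Cdk4 is a known MYC target. Myc itself, the oncogenic transcription factor, measured 7.56 on the log2 scale in the parent line and 6.06 in SMiNs, 2.83-fold lower. The window spans 250 bases before to 50 after the transcript start at chr7:64771203-64771502 (GRCr8, + strand, RefSeq). E boxes are in capitals.
Cdk4: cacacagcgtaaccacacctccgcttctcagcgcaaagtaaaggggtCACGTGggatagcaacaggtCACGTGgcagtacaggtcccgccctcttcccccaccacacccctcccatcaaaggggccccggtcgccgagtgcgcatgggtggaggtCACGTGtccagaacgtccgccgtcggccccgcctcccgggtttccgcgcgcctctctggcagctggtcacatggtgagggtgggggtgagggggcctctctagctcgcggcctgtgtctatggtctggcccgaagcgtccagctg
The 3 matches compare with at least 1 in 6.42% and at least 3 in 0.0568% of 33469 promoter windows of this length. The E box was added to the motifs searched after this window had been read. A match gives letters only and says nothing of binding in these cells.

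The differences of the kinase inhibitors had both signs, and only that of Cdkn2b passed 2-fold. Cdkn2b, which encodes the INK4 protein p15 and in other cells answers to TGF-beta, had a log2 signal of 4.88 in the parent line and 6.04 in SMiNs, 2.24-fold higher. Its C6 glioma value was 0.20 above the floor, and 9 of the 232 receptor probe sets were as high on that array and 3 on the SMiN array. A difference of at least that of Cdkn2b, 1.16, was seen in 10 receptor probe sets. Both of its values lay below the 99th percentile of the receptor probe sets, 5.45 in the parent line and 6.05 in SMiNs. Cdkn2b was the only member with both values under these marks. Cdk6 (6.04) and Rbl1 (5.92) were also under the SMiN mark, while their C6 glioma values were above that of the C6 array.

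Cdkn1a, which encodes p21, had a signal of 7.88 in the parent line and 8.17 in SMiNs, 1.23-fold higher. Cdkn1b, which encodes p27, had 8.62 and 7.87, 1.68-fold lower. The difference of Cdkn1a exceeded that of Cdkn1b by 1.05 on the log2 scale, which is within the 95th percentile of the gap between probe sets of 1 gene. Neither inhibitor thus reached 2-fold on these arrays, and they leaned in opposite directions. Much of the known control of p27 is through its degradation, which these arrays do not measure.

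Among the other inhibitors examined, none of 4 measured genes differed by 2-fold, beside 4.27% of all named genes upward and 8.12% downward. Cdkn2c, the INK4 gene for p18, was 1.48-fold lower, with signals of 8.03 and 7.47. Cdkn3, a phosphatase that acts on CDK2, was 1.77-fold lower (8.67 and 7.85), and Cdkn1c, which encodes p57, had 5.17 and 5.27. Cdkn2a, the INK4 gene beside Cdkn2b that encodes p16 and ARF, lay below the floor on both arrays at 3.94 and 4.34.

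The promoter window of Cdkn2b is shown because it holds a full cAMP response element, TGACGTCA, the site of CREB factors that cAMP activates, and the treatment included forskolin. It lies at chr5:109134806-109135105 (GRCr8, - strand, RefSeq), printed on the strand of the gene with the element in capitals, which begins at -96 from the transcript start.
Cdkn2b: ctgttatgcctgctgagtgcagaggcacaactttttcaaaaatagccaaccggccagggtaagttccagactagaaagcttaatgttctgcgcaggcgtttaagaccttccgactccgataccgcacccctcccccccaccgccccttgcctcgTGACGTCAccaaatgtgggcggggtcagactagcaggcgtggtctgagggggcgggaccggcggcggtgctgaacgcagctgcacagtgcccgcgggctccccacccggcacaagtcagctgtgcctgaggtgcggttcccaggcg
This element was found in 612 of 33469 promoter windows, 1.83%. Here too a match gives letters only. Whether the element or forskolin had a part in the Cdkn2b signal was not tested. The shorter core TGACG, which the full element contains on each strand, was in 21.2% of windows, among them those of Ccnd3, Cdkn1a, Cdkn1b and Rb1. Windows for Ccnd1, Ccnd2 and Cdk6 were not analysed here, so the letters before the gene with the highest difference are not shown.

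Signals of both pocket proteins were lower in SMiNs, by nearly the same amount. Rb1, the retinoblastoma protein that holds activating E2F factors in check, had a log2 signal of 8.39 in the parent line and 6.72 in SMiNs, 3.19-fold lower. Rbl1, which encodes p107 and works mainly with repressive E2F factors in cycling cells, had 7.49 and 5.92, 2.96-fold lower. Their differences of -1.67 and -1.57 were 0.11 apart. The third pocket protein gene, Rbl2, which encodes p130 and is known to dominate in resting cells, had a signal of 7.04 in the parent line and 6.59 in SMiNs, 1.37-fold lower. Its difference exceeded that of Rb1 by 1.22 and that of Rbl1 by 1.11, beside 95th percentiles of the gap between probe sets of 1 gene of 1.43 over all such genes and 1.21 over those with all probe sets at the floor or above.

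The promoter windows of both members are shown because Rb1 and Rbl1 are known E2F targets in mammals as well as E2F partners, and their signals differed alike. The letters searched were TTTCGCGC, TTTGGCGC, TTTCCCGC and TTTGCCGC, on both strands, with matches in capitals. The window of Rb1 lies at chr15:54911808-54912107 and that of Rbl1 at chr3:166289327-166289626 (GRCr8, both - strand, RefSeq).
Rb1: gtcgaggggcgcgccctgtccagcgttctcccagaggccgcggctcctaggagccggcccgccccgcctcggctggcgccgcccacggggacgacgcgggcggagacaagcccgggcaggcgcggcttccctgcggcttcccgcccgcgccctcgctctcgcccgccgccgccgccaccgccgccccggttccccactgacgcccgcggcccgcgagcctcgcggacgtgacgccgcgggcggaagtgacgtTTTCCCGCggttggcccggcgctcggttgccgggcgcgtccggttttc
Rbl1: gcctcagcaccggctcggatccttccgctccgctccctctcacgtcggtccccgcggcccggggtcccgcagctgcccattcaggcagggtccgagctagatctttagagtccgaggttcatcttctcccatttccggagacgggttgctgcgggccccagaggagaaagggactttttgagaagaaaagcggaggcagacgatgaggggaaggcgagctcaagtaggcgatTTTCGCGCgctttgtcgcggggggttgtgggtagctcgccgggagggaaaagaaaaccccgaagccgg
Each window held 1 match, at 3 from the transcript start in Rb1 and at -18 in Rbl1, and 2.14% of 33469 windows held at least 1. The windows of Ccnd3, Cdk4, Cdkn1a, Cdkn1b and Cdkn2b held none. The part of these letters in the signals of Rb1 and Rbl1 was not tested. For Ccnd3, Cdkn1a, Cdkn1b, Cdkn2b, Rb1 and Rbl1 the transcript start used lies inside the annotated gene, while for Cdk4 it is the outermost one.

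**Figure D2:**
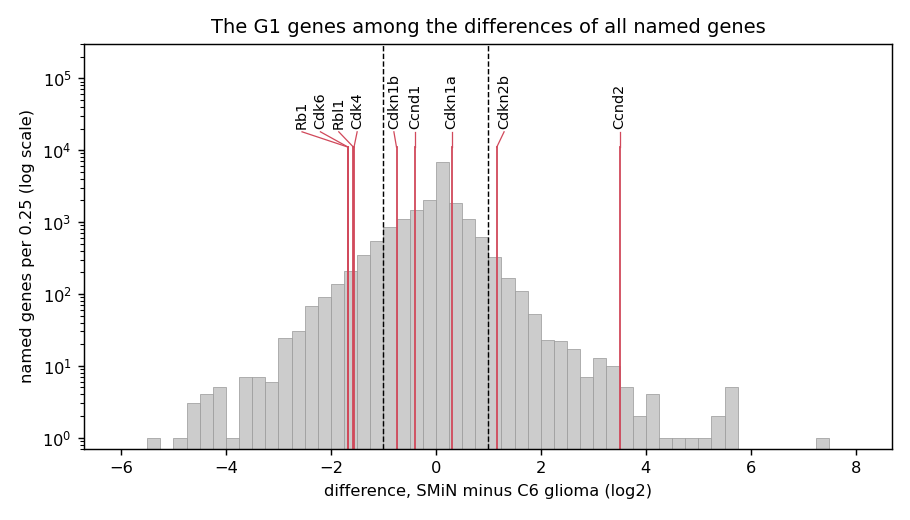
Number of named genes (y axis, log scale) by difference between the arrays in bins of 0.25 (x axis, log2, SMiN minus C6 glioma), with red lines at the 9 measured G1 genes and dashed lines at 2-fold. Cdk4, Cdk6, Rb1 and Rbl1 lay close together between -1.67 and -1.56, and Ccnd2 stood far to the right at 3.50.

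Downstream of the D-type cyclins, the kinase Cdk2 and the later cyclin Ccna2 were more than 2-fold lower, whereas Ccne2 lay within 2-fold. Cdk2 had a log2 signal of 8.67 in the parent line and 6.92 in SMiNs, 3.35-fold lower. Ccna2, the cyclin A of dividing somatic cells, had 8.76 and 6.56, 4.57-fold lower. Ccne1 had the same signal of 6.34 on both arrays, and Ccne2 had 6.43 and 6.66, 1.17-fold higher. The equal value of Ccne1 is not read as no change, since 22.7% of named genes had exactly equal values on both arrays and none of the members did. Cdc25a, the phosphatase that activates CDK2, was 1.37-fold lower, and Ccna1, a cyclin mainly of germ cells, was 1.14-fold lower.

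The CDK-activating kinase, which phosphorylates CDK4, CDK6 and CDK2 as its substrates, had higher signals in all 3 subunits, though none reached 2-fold. Cdk7 had 7.22 in the parent line and 8.13 in SMiNs, 1.88-fold higher. Ccnh, its cyclin, had 6.97 and 7.88, 1.87-fold higher, and Mnat1, the assembly factor, was 1.33-fold higher. These subunits lay on the other side of 0 from the kinases that they activate. Of the 11427 genes that reached the floor on 1 array or both, 3741 had a higher signal in SMiNs. All 3 differences, 0.41 to 0.91, were within the 95th percentile of the gap between probe sets of 1 gene (1.21).

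Of 16 measured genes for E2F and DP factors, Rbl2 and proteins that form or join the DREAM complex, 5 passed 2-fold downward and none upward. Among all genes that reached the floor the shares were 12.8% and 5.57%. The median difference of the list was -0.61. Not all of these proteins bind pocket proteins, so the count is not one of their partners. Measured against the floor the downward count was 4, since Tfdp2, a dimerization partner of E2F factors, was at least 1.72-fold lower. The repressive factors E2f7 and E2f8 were 2.48-fold and 2.21-fold lower. Mybl2, which joins the complex to activate genes of mitosis, was 2.61-fold lower, with signals of 7.19 and 5.81. Lin54, the DNA-binding subunit, was 2.18-fold lower on its brighter probe set and 1.25-fold higher on the other, which lay below the floor on both arrays. E2f1, the best known activating factor, was within 2-fold.

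Of 15 measured replication genes whose promoters E2F binds, 8 passed 2-fold downward and none upward, against the same shares of 12.8% and 5.57%, with a median of -1.24. They were Mcm2 to Mcm7, which encode the replicative helicase, Cdc45, which joins it, and Rrm2, which makes deoxynucleotides. Cdc45 lay below the floor in SMiNs and was at least 2.01-fold lower. On the brightest probe sets the differences of Mcm2 to Mcm7 ran from -2.04 to -1.32, a span that holds those of Cdk4, Cdk6, Rb1 and Rbl1. Second probe sets gave smaller differences, -0.91 for Mcm3 (1.88-fold, short of 2-fold), -1.19 for Mcm4 and -1.03 for Rrm2. The count and the span thus depend on the choice of probe set. Pcna, the sliding clamp of DNA polymerase, was within 2-fold and slightly higher. The study reports genes from these same arrays, so their values here are not independent of it. Among them are Cdk4, Cdk6, Ccna2, the Mcm family, Myc, Ets1, Pdgfra, Pdgfrb and Col1a1.

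Among 15 measured ubiquitin ligase subunits and cofactors that act on D-type cyclins, p21 or p27, 2 were at least 2-fold lower and 1 was higher, with a median of -0.28. Both counts are near the shares of 12.8% and 5.57% among genes that reached the floor, so they are no result about these genes, and the values that follow only describe those past 2-fold. Dtl, which directs p21 and the licensing factor CDT1 to degradation in S phase, was 3.13-fold lower, with signals of 7.69 and 6.05. Cul4a, the scaffold on which Dtl works, was 2.02-fold lower. Fbxo31, an F-box protein reported in human cells to act on cyclin D1, was 2.23-fold higher, with signals of 6.77 and 7.92. Skp2 and Cks1b, which mark p27 for degradation, were within 2-fold.

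Of 16 measured p53 target genes, 1 passed 2-fold upward, none passed it downward and the median was 0. The upward count is near the 5.57% of all genes that reached the floor, and the downward share was 12.8%. That gene was Tp53inp1, which slows growth under stress, 2.47-fold higher. Cdkn1a, the best known p53 target among the members, thus stood among genes of which most lay within 2-fold.

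Of 20 measured transcription factors that are known to act on promoters of D-type cyclins or kinase inhibitors, 5 passed 2-fold downward and 1 upward, with a median of -0.47. Among all genes that reached the floor the shares were 12.8% and 5.57%, and the upward count is near the latter. Besides Myc, the lower factors were Klf6 (5.34-fold) and Klf4 (4.11-fold), which in other cells raise Cdkn1a, Ets1 (at least 3.21-fold) and Sp1 (2.23-fold), the factor of GC boxes. Ets2, which is related to Ets1, was 3.15-fold higher, with signals of 6.71 and 8.36. Ctnnb1, the Wnt effector beta-catenin whose protein GSK3 marks for degradation, was 1.99-fold lower in transcript signal.

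**Figure D3:**
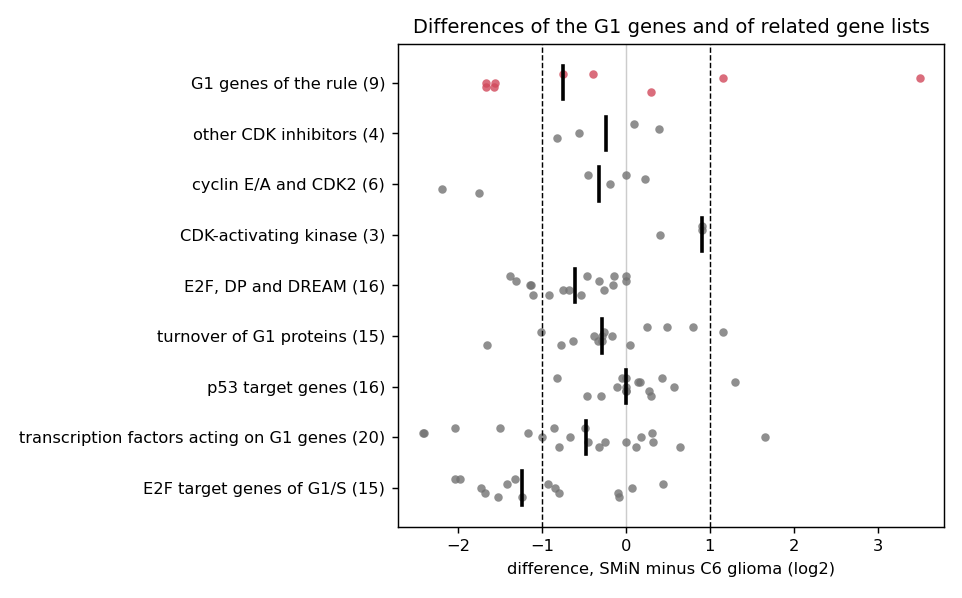
Difference between the arrays (x axis, log2, SMiN minus C6 glioma) of each measured gene (points) in the G1 set and in 8 related lists, with the number measured in parentheses, a black bar at each median and dashed lines at 2-fold. The members spread more widely than any related list shown only through Ccnd2 (3.50). The other members ran from -1.67 to 1.16, inside the span of the transcription factors, -2.42 to 1.66. The replication genes bound by E2F had the lowest median, -1.24.

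**Figure D4:**
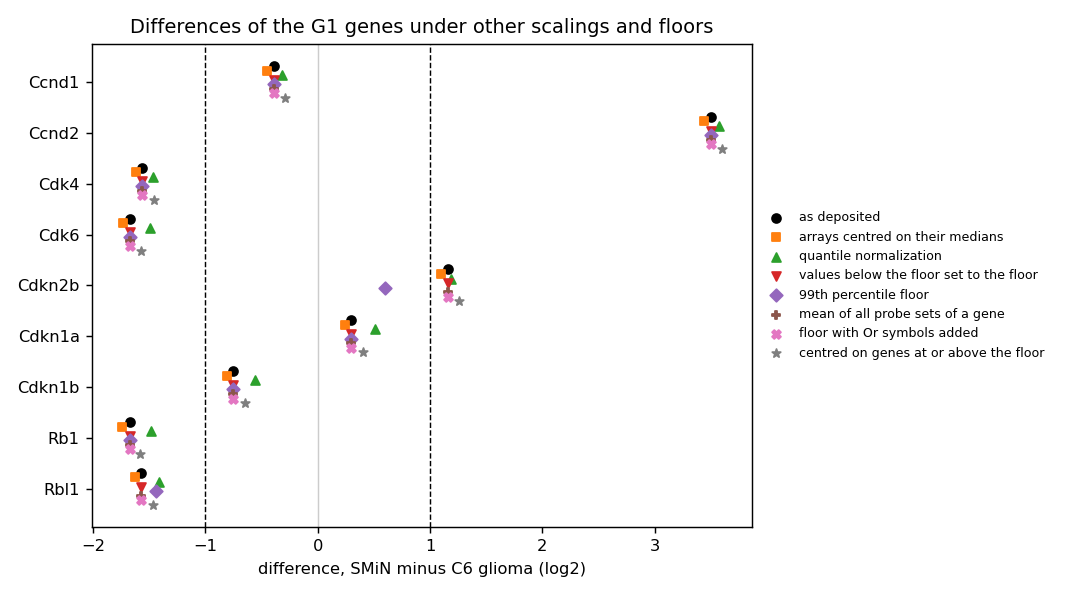
Difference between the arrays (x axis, log2, SMiN minus C6 glioma) of each measured G1 gene as deposited (black circles) and under 7 other scalings, floors or probe set rules (other symbols), with dashed lines at 2-fold. The other 8 members kept their direction and their side of 2-fold, while Cdkn2b has no measured difference with the 99th percentile floor, where both of its values lie below the floors and its symbol at 0.60 is the gap between them. Values set to the floor, the floor with Or symbols added and the mean of all probe sets could not move any member.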

How the data were processed

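Total RNA from 1 culture sample per condition was labeled with a whole-transcript kit, and the authors scanned and processed the arrays in the GeneChip Command Console program. For each of 36685 probe sets the authors deposited a log2 signal, with array medians of 4.79 (C6 glioma) and 4.85 (SMiN). How signals were summarized and normalized, and on which genome build, is not given in the sources used here. Base 2 was inferred from the range, 1.04 to 13.03. Gene values came from the 18511 probe sets with a single symbol, and 575 with several and 17599 unnamed here were left out. Where a gene had several probe sets the brightest by mean signal was used. A fold against a value below the floor is given as "at least". No test was run, since 1 array per condition allows none, and the number of arrays limits the precision.

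The members, the 15 gene lists (151 names, 137 measured) and the motifs were chosen with earlier results of these data known. Named genes were all members, listed genes that differed by at least 2-fold, and, where a list held 6 or fewer, any of its genes. The choice of Rbl2, E2f1, Pcna, Skp2, Cks1b, Ctnnb1 and 7 neuron markers, outside this rule, was made after seeing their values. The receptor probe sets were those with symbols starting Olr, Vom1r or Vom2r. Alternatives were array median centring, quantile normalization, values set to the floor, a 99th percentile floor, the mean of all probe sets, other fold thresholds, a filter on low values, leaving out equal values and the mean in place of the median. A floor with receptor symbols starting Or added, and centring on genes at or above the floor, were chosen after the data were seen. The code for counts and medians was checked on simulated arrays with known differences, which is no test of the data. Python 3.11.15, numpy 2.4.6, pandas 2.3.3 and matplotlib 3.10.9 were used.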

Additional observations from a re-analysis of the deposited data

How the results depend on the processing

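Over 7 alternatives of scaling, floor and probe set rule, 8 of the 9 measured members kept their direction and their side of 2-fold. Some of these alternatives could not move any member and are no check of it. Setting values to the floor, with or without the newer receptor symbols, changes nothing for members above both floors. The mean of all probe sets changes nothing for members with 1 probe set. Ccnd2 ranged from 3.44 to 3.60 on the log2 scale, Cdk4 from -1.62 to -1.46, Cdk6 from -1.73 to -1.49, Rb1 from -1.74 to -1.48 and Rbl1 from -1.63 to -1.41. The exception was Cdkn2b, at 0.60 with the 99th percentile floor, where both of its values lie under the floor and the 0.60 is the gap between the floors, with no direction of its own. Rbl1 was at -1.44 there. The number of members at least 2-fold higher was then 1, and that of all named genes 474 in place of 776. At a 4-fold threshold 1 member was higher and 0 were lower. The median of the members was -0.56 with quantile normalization, and the mean in its place was -0.29. Centring on genes at or above the floor moved all differences by 0.10.

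Small list medians changed sign. That of the macrophage markers was -0.01 with median centring and -0.06 with quantile normalization, which also gave -0.02 for the astrocyte markers. The cause was not tested. No paired analysis was possible because each condition had 1 array. With no replicate, the error of every difference is unknown, and values near the floor carry the least information, among the members those of Cdkn2b on both arrays and of Rbl1 and Cdk6 in SMiNs.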

Other observations

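The genes beside Cdkn2b on the chromosome, a region often deleted in gliomas, were examined together. Mtap, which salvages methionine, had a log2 signal of 5.69 in the parent line and 5.07 in SMiNs, 1.53-fold lower. Dmrta1, a transcription factor gene, lay below the floor on both arrays at 2.88 and 3.50, as did Cdkn2a at 3.94 and 4.34. Differences of Dmrta1 and Cdkn2a are therefore not read. Copy number was not measured.

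The floor itself differed between the arrays, at 4.68 in the parent line and 5.05 in SMiNs. With 1128 receptor probe sets of newer symbols added it was 4.79 and 4.89. Of the 232 receptor probe sets of the main floor, 13 passed 2-fold upward and 2 downward, and the differences had a median of 0.08 and a mean of 0.22.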
